A study of Mus musculus with 6 samples.

Results

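The genes described here build and modify long-chain fatty acids. They are the regulator Srebf1 and the enzyme genes Acly, Acaca, Fasn, Scd1, Scd2, Elovl5, Elovl6, Fads1 and Fads2, 10 of the 36047 genes summed, chosen by name for their role, with earlier results of these data known. PolyA RNA from the mouse lung line MLE-12, which is epithelial, was sequenced (RNA-seq) in 6 libraries. All cultures grew in medium with 2% FBS and 1% ITS and were treated at a density of 30%. In 3 libraries (CSE) the cells then received 5% cigarette smoke extract with an optical density of 2.0, and in 3 (PBS) the same volume of PBS. Cells of both groups were collected 24 h later. MLE-12 is a single immortalised line, so the libraries do not sample different animals, and the labels do not say if replicates are separate cultures. The p-values therefore speak only for the scatter among these 6 libraries, part of which may be technical. The comparison asks how these genes respond to smoke extract.

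Fatty acids are made in the cytosol from citrate that leaves the mitochondria. ATP-citrate lyase splits citrate into acetyl-CoA, acetyl-CoA carboxylase turns part of it into malonyl-CoA, and fatty acid synthase joins these units into palmitate. Elongases lengthen the chain in the endoplasmic reticulum, stearoyl-CoA desaturases make monounsaturated acids such as oleate, and the fatty acid desaturases together with elongases make polyunsaturated acids from dietary precursors. Many of the genes carry binding sites for SREBP transcription factors, which are held in the endoplasmic reticulum by INSIG proteins and released for cleavage when sterols are low. In the lung, alveolar type 2 cells use newly made palmitate for the phosphatidylcholine of surfactant.

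Library totals lay between 12093009 and 24050167 estimated counts. The 10 genes held between 330 and 39433 counts in each library. The libraries of a group were not duplicates, with a chi-square per degree of freedom between 5.61 and 17.7. Among epithelial markers, Krt19 (1005 TPM in PBS), Krt8 (206 TPM) and the lung lineage factor Nkx2-1 (121 TPM) were present, whereas Krt18 (0.356 TPM) and Epcam (2.36 TPM) were close to 0. Of the alveolar type 2 markers, Abca3 was at 34.7 TPM in PBS, Sftpc at 3.09 TPM and Sftpb at 1.25 TPM, and Sftpa1 had no count in any library. The 6 adipocyte markers, which would accompany the highest lipogenic expression in tissue, summed to between 0.19 and 0.50 TPM in the PBS libraries and between 0.16 and 0.29 TPM in the CSE libraries, with Cidec and Cfd at 0 in all 6. The 6 immune markers summed to between 2.62 and 5.43 TPM in PBS and between 2.09 and 4.81 TPM in CSE, and the 4 endothelial markers to between 1.76 and 2.28 TPM in PBS and between 0.86 and 1.32 TPM in CSE.

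Of the 10 genes, the elongase gene Elovl6 and the synthase gene Fasn fell with smoke extract, and the other 8 did not pass the threshold of edgeR's quasi-likelihood test (adjusted p under 0.05). No gene of the 10 rose. Over all 13451 genes tested, 7.12% were called lower and 11.4% were called in either direction. All 10 fitted values were below 0, with a median log2 change of -0.23 against 0.01 over all genes tested, although those of Srebf1 and Acaca, the 2 nearest to 0, turned positive under some settings. In 7 of the 10 (Acly, Fasn, Scd1, Elovl5, Elovl6, Fads1 and Fads2) every CSE library lay below every PBS library in normalised CPM (counts scaled to library size). Such separation toward lower values was found in 16.2% of all genes tested. Unadjusted p was under 0.05 for 7 of the 10, and for 26.0% of all genes tested.

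**Figure D1:**
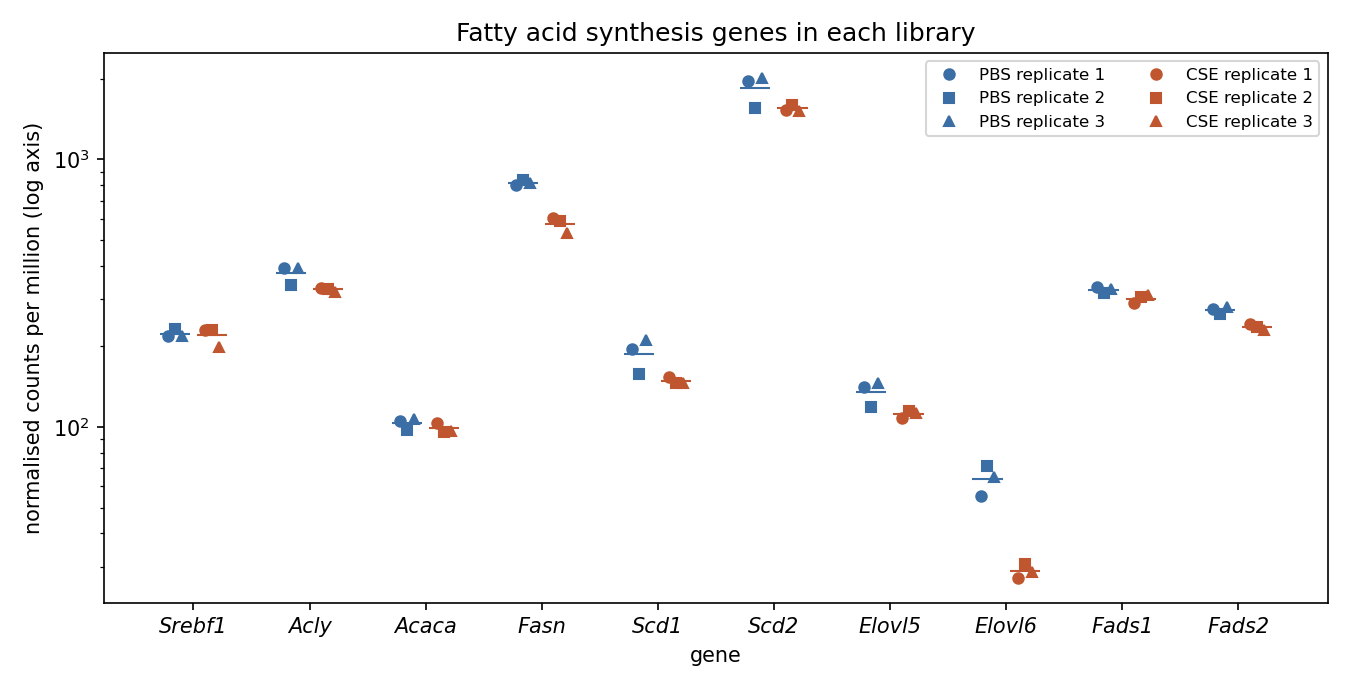
Normalised CPM (log axis) of the 10 genes in each library, with a line at each group's mean. Elovl6 lies between 55.0 and 71.3 in PBS and between 27.4 and 30.7 in CSE, while the groups overlap for Srebf1, Acaca and Scd2.

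How many of the genes were called depended on 1 PBS library and on the method. PBS replicate 2 had the lowest value of the PBS libraries in 7 of the 10 genes and the highest in 3 (Srebf1, Fasn and Elovl6). Without it 7 genes were called lower (Acly, Fasn, Scd1, Scd2, Elovl5, Elovl6 and Fads2, against 7.23% of all genes tested then). DESeq2 called 5 with all 6 libraries (Fasn, Scd1, Elovl5, Elovl6 and Fads2, against 7.08% of all genes). Elovl6 was called in each of the 19 alternative analyses, and Fasn in each except the test against a 1.5-fold change.

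**Figure D2:**
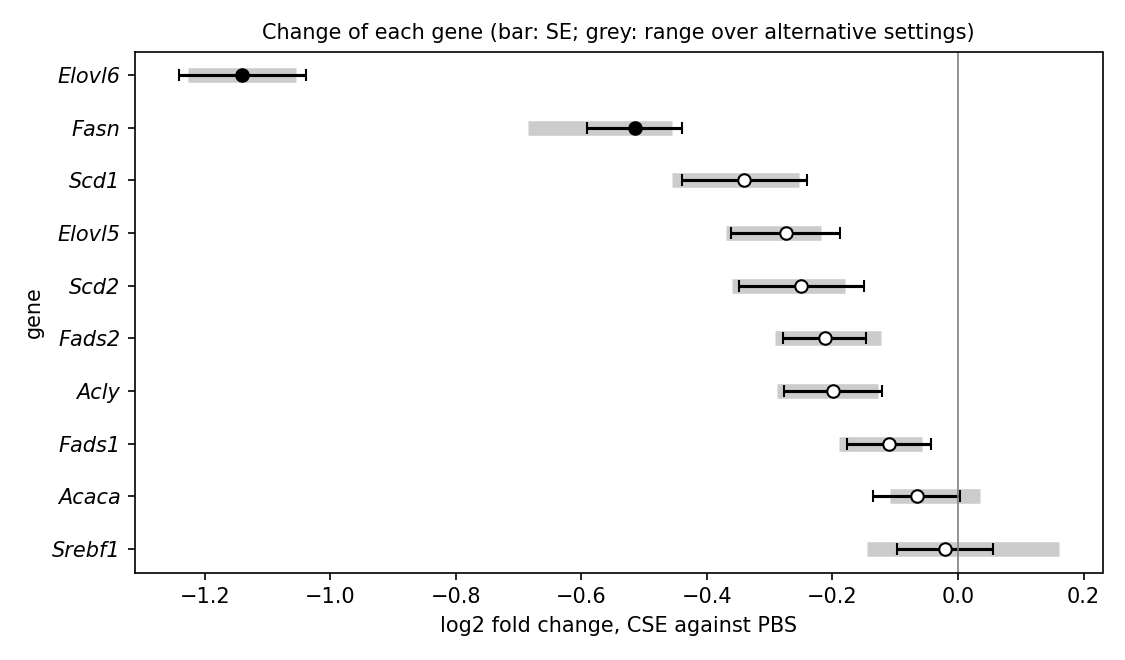
Log2 fold change of CSE against PBS for each gene (point, filled where called by edgeR) with its SE (bar) and the range over 19 alternative analyses (grey band). The bands of Acaca and Srebf1 cross 0, and those of all the other genes stay below it, with Elovl6 and Fasn the farthest.

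The order of the levels was similar in both groups. Levels are compared between genes in TPM, which is scaled to transcript length, and over protein-coding transcripts only. Scd2 had the highest level in PBS, with 548 ± 85.2 TPM (SD, n = 3). Fads1 (162 ± 7.92), Acly (146 ± 15.1) and Fads2 (146 ± 9.57) followed with overlapping ranges, then Fasn (125 ± 7.12). Srebf1 (87.7 ± 5.47), Elovl5 (82.5 ± 11.2) and Scd1 (63.4 ± 10.9) came next, each overlapping with its neighbour in the order, and Elovl6 (30.7 ± 5.45) and Acaca (17.6 ± 1.65) were the lowest. In CSE the last places were exchanged, with Acaca at 16.6 ± 1.37 and Elovl6 at 13.5 ± 0.44 TPM.

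Srebf1 (chromosome 11, 60199089 to 60222581, GRCm38, minus strand) encodes SREBP-1, the SREBP that acts mainly on fatty acid genes. Its level was 219, 232 and 219 CPM in the PBS libraries and 231, 229 and 199.9 CPM in the CSE libraries. CSE replicate 3 was the lowest, and the other CSE libraries lay within the PBS range. The log2 change was -0.02 ± 0.08 (SE; edgeR adjusted p = 0.899). It became 0.16 when trends with GC content and length were removed (adjusted p = 0.129), 0.048 without CSE replicate 3 and 0.0043 without PBS replicate 2. SREBP-1 is made in forms that start at different first exons, and the deposited transcripts do not separate them well. Most of the gene's TPM (60.7%) was assigned to a model of 4063 bases that begins inside an internal exon of the 4299-base model (30.2%). A 3177-base model, which begins at another first exon, held 0.35, 0.73 and 1.18 TPM in PBS and 0.15, 0.35 and 0.28 TPM in CSE. Exons of Srebf1 also overlap those of Rai1 on the opposite strand by up to 109 bases, and the strand setting of the counting is not given in the sources used here.

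Acly (chromosome 11, 100476353 to 100528000, minus strand) encodes ATP-citrate lyase, which supplies cytosolic acetyl-CoA. The PBS libraries held 394, 338 and 394 CPM and the CSE libraries 331, 328 and 321 CPM. The groups did not overlap, but PBS replicate 2 lay close to the CSE libraries. The log2 change was -0.20 ± 0.08 (edgeR adjusted p = 0.133), and -0.27 without PBS replicate 2 (adjusted p = 0.0277).

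Acaca (chromosome 11, 84129672 to 84401651, plus strand) encodes the cytosolic acetyl-CoA carboxylase, which catalyses the committed step. Its values overlapped between groups, at 106, 97.5 and 107 CPM in PBS and 103, 96.0 and 97.0 CPM in CSE. The log2 change was -0.07 ± 0.07 (edgeR adjusted p = 0.591), 0.011 with an offset for effective transcript length and 0.035 when trends with GC content and length were removed. Of the 31-base words of its main transcript, 59.9% also occur in Gm5182, to which the PBS libraries together had 3.3 counts assigned and the CSE libraries 2.1. Its counts are therefore uncertain to the extent that reads were split between these loci.

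Fasn (chromosome 11, 120805846 to 120824547, minus strand) encodes fatty acid synthase, the multifunctional enzyme that makes palmitate. The PBS libraries held 803, 841 and 816 CPM and the CSE libraries 605, 587 and 529.5 CPM. The groups were clearly apart, with the gap between the lowest PBS and the highest CSE library wider than the range within either group. Fasn fell by 0.51 ± 0.08 on the log2 scale (edgeR adjusted p = 0.00125), to 0.70 of the PBS level, and stood at place 1002 of 13451 counted from the largest decrease. With 1 library left out, the change lay between -0.55 and -0.46 and the adjusted p between 0.00207 and 0.0112.

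Fasn and Elovl6 are the genes that fell, and their start regions are shown with that of Elovl5, an elongase that was not called. Each runs from 250 bases before to 50 after the RefSeq start site, on the strand of the gene (RefSeq, GRCm38.p6). Capitals mark matches, on either strand, to a CCAAT box (CCAAT), an E-box (CACGTG), a GC box (GGGCGG) or the sterol regulatory element (TCACNCCAC).
Fasn, chr11:120824498-120824797, minus strand: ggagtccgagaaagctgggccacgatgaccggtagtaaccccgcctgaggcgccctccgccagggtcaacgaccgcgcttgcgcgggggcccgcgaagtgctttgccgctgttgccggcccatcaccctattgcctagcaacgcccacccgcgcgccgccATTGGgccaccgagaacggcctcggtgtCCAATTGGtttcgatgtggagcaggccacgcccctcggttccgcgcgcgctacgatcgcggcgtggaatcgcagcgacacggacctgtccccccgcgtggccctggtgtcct
Elovl6, chr3:129532136-129532435, plus strand: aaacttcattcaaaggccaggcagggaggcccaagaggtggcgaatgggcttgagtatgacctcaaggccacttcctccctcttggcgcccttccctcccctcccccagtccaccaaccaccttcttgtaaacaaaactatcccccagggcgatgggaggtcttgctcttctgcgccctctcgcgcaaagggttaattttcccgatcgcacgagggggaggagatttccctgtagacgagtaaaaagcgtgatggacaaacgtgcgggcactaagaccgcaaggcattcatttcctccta
Elovl5, chr9:77917115-77917414, plus strand: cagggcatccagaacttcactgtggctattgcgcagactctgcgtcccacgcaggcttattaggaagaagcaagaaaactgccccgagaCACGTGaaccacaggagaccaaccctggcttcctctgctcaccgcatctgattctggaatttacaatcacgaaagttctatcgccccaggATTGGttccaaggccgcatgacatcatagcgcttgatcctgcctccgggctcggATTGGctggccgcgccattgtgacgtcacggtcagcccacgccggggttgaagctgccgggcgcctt
The Fasn window holds 3 matches to CCAAT, 2 of which overlap in one run at -62 to -55 from the start site. The Elovl6 window holds none of the 4 motifs, and that of Elovl5 holds 2 matches to CCAAT and 1 to CACGTG. Start regions were at hand for 7 of the 10 genes, with 9 windows in all, several of them of Srebf1. That of Acaca lies at a start site inside the gene (84195438). The letters TCACNCCAC occur in 0 of the 9. Among all 32851 such windows, 1.24% hold TCACNCCAC, 7.15% CACGTG, 37.4% CCAAT and 35.7% GGGCGG. With exact letters so rare, 0 in 9 short windows does not show that these genes lack a sterol regulatory element.

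The level of Fasn per length depends on which transcripts are summed. Most of the gene's TPM was assigned to 2 short models annotated as retained introns, of 976 bases (40.8% of TPM) and 762 bases (29.5%), which held 10.2% and 5.32% of its counts. The protein-coding models of 8333 and 10050 bases held 59.8% and 24.7% of the counts. The 8333-base model stood at 86.9, 96.4 and 102 TPM in PBS and 69.3, 63.0 and 51.2 TPM in CSE, and the 10050-base model at 30.6, 30.8 and 29.7 against 23.5, 22.5 and 22.4 TPM. The 976-base model stood at 163, 196 and 183 TPM in PBS and 109, 119.9 and 94.6 TPM in CSE. For all 4 models the PBS and CSE values did not overlap, with CSE the lower. Over all models the mean TPM was 436 in PBS and 271 in CSE, and over protein-coding models 125 and 84.0. Counted over protein-coding transcripts alone, the fitted change was -0.50.

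**Figure D3:**
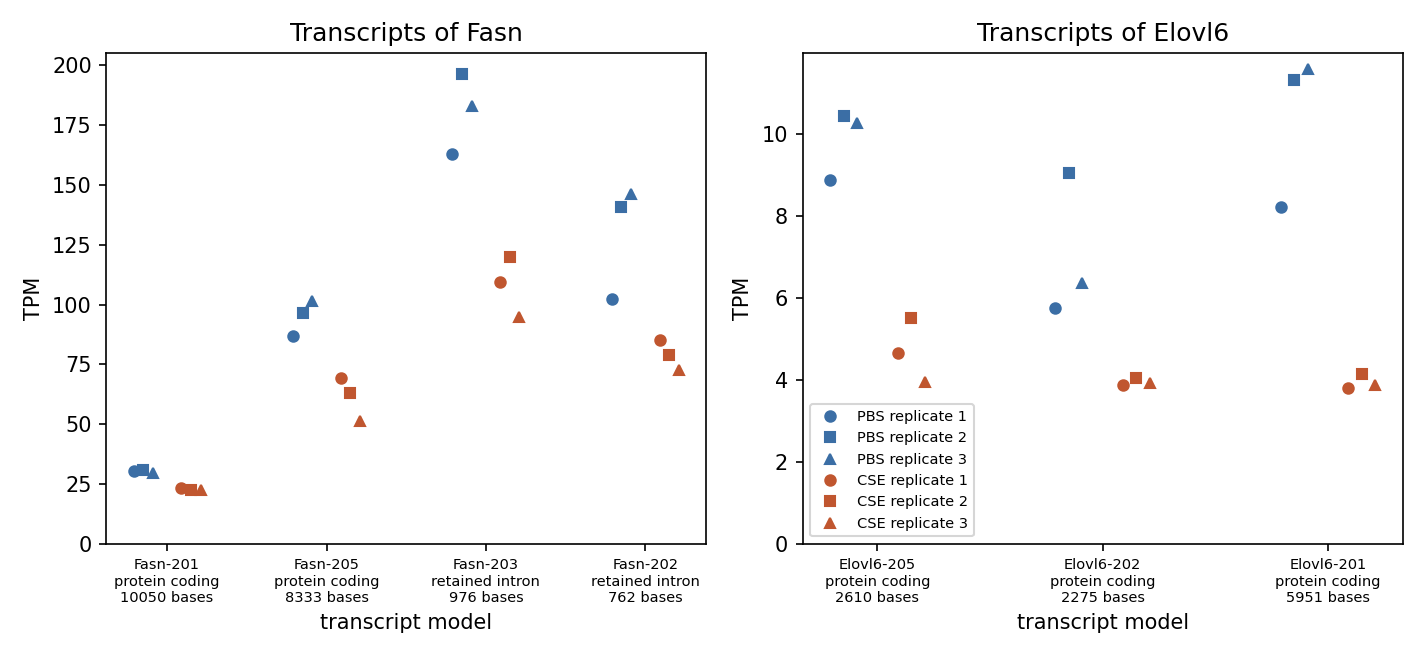
TPM of the transcript models of Fasn (those described) and of Elovl6 (those with at least 10% of the gene's TPM) in each library. Every model shown is lower in the CSE libraries than in the PBS libraries, including the short Fasn models that hold most of its TPM.

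The genes of stearoyl-CoA desaturase, which makes oleate and palmitoleate, were not called, and PBS replicate 2 lay nearest to the CSE libraries for both. Scd1 (chromosome 19, 44394455 to 44407879, minus strand) held 196, 158 and 211 CPM in PBS and 153, 146 and 147 CPM in CSE. The groups did not overlap, with PBS replicate 2 just above the CSE libraries. The log2 change was -0.34 ± 0.10, just short of the threshold (edgeR adjusted p = 0.0519), and 7 of the 19 alternative analyses called it, with an adjusted p of 0.014 in DESeq2 and 0.00199 without PBS replicate 2. Scd2 (chromosome 19, 44293674 to 44306864, plus strand) lies 87591 bases from Scd1 and encodes the form found widely outside the liver. It held 1960.3, 1557 and 2017 CPM in PBS and 1537, 1602 and 1516 CPM in CSE, so that PBS replicate 2 fell within the CSE range. The log2 change was -0.25 ± 0.10 (edgeR adjusted p = 0.142), and -0.36 without PBS replicate 2 (adjusted p = 0.00875). The main transcripts of Scd1 and Scd2 shared 8.3% and 6.86% of their 31-base words with other genes, most of them with Scd3.

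Elovl6 (chromosome 3, 129532355 to 129638495, plus strand) encodes the elongase that extends palmitate to stearate. It had the largest change of the 10 genes. The PBS libraries held 55.0, 71.3 and 65.1 CPM and the CSE libraries 27.4, 30.7 and 28.7 CPM. The highest CSE value lay far below the lowest PBS value, and the PBS libraries varied more than the CSE libraries. Elovl6 fell by 1.14 ± 0.10 on the log2 scale (edgeR adjusted p = 4.6e-05), to 0.45 of the PBS level, and stood at place 138 of 13451 from the largest decrease. With 1 library left out the change lay between -1.23 and -1.06, and against a 1.5-fold change the adjusted p was 0.0029. The main transcript of Elovl6 shared 7.06% of its 31-base words with other genes. All 3 main transcript models were lower in CSE. The 5951-base model, with 57.8% of the counts, stood at 8.21, 11.3 and 11.6 TPM in PBS and 3.8, 4.15 and 3.87 TPM in CSE, and the 2610-base model at 8.88, 10.5 and 10.3 against 4.65, 5.52 and 3.96 TPM.

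Elovl5 (chromosome 9, 77917364 to 77984519, plus strand) encodes an elongase of polyunsaturated acids. It held 141, 118 and 146 CPM in PBS and 108, 115 and 113 CPM in CSE. PBS replicate 2 was again the lowest of its group and near the CSE libraries. The log2 change was -0.27 ± 0.09 (edgeR adjusted p = 0.0681), called in 6 of the 19 alternative analyses, with an adjusted p of 0.00601 without PBS replicate 2.

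Fads1 and Fads2 encode the front-end desaturases that introduce further double bonds on the way to arachidonic and docosahexaenoic acid, and lie 81142 bases apart on chromosome 19. Fads1 (10182888 to 10196877, plus strand) held 332, 318 and 328 CPM in PBS and 289.6, 305 and 312 CPM in CSE. Its log2 change was -0.11 ± 0.07 (edgeR adjusted p = 0.338), and no alternative called it. Fads2 (10062765 to 10101746, minus strand) held 275, 265 and 282 CPM in PBS and 243, 237 and 229.7 CPM in CSE, a log2 change of -0.21 ± 0.07 (edgeR adjusted p = 0.0671). It was called in 3 of the 19 alternative analyses, with an adjusted p of 0.0489 in DESeq2. The groups of Fads1 were apart by little, whereas the gap between those of Fads2 was wider than the range within either.

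Whether related genes moved by different amounts was tested on the ratio of their TPM, summed over all transcripts, within each library, which no scaling between libraries can alter. The ratio of Elovl6 to Elovl5 was 0.293, 0.456 and 0.332 in PBS and 0.209, 0.198 and 0.206 in CSE, a log2 difference of -0.80. The ratio of Fasn to Acaca was 19.2, 24.8 and 21.2 in PBS and 13.9, 15.2 and 13.3 in CSE, a difference of -0.62. Over protein-coding transcripts only, without the short Fasn models, that ratio was 6.51, 8.05 and 6.90 in PBS and 5.10, 5.34 and 4.71 in CSE, a difference of -0.50, and on counts the difference was -0.45. In these 2 pairs the groups did not overlap. Each had a two-sided exact permutation p of 0.1, the smallest that 3 against 3 libraries allow, and 0.2 after Benjamini-Hochberg adjustment over the 4 pairs compared, so neither passed. The ratio of Scd1 to Scd2 lay between 0.113 and 0.119 in PBS and between 0.103 and 0.113 in CSE (difference -0.08, exact permutation p = 0.2, adjusted 0.267). That of Fads2 to Fads1 lay between 0.863 and 0.911 in PBS and between 0.773 and 0.876 in CSE (difference -0.10, exact permutation p = 0.3, adjusted 0.3). For these 2 pairs, each on chromosome 19, the ratios overlapped between groups.

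Likeness to the 2 called genes was measured by Pearson's r of log2 CPM over the 6 libraries, among the 9888 genes that averaged 5 TPM or more. It is a description, since the libraries fall into 2 groups and any gene that fell evenly scores high. The genes most like Fasn were Iqsec1, Serpinb9b, Rela, Faah and Dlgap4, with r between 0.997 and 0.999, and those most like Elovl6 were Vstm5, Tecpr1, Nfe2l3, Flrt3 and Col1a1, with r between 0.996 and 0.997. Among the 10 genes, Elovl6 (0.963) and Fads2 (0.955) were the most like Fasn, and Srebf1 the least (0.376).

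Other genes of the pathway and a set of sterol-regulated genes were read from lists of 80 genes, of which 76 were tested. Of these, 13 were lower and 3 higher in CSE, against 7.12% and 4.32% of all genes. Their median log2 change was -0.05. The 7 tested genes of the sterol-regulated list, described last, were all among the 13 lower. In the list of regulators, 2 of 21 fell and 1 rose. Srebf2, which encodes the SREBP that acts mainly on cholesterol genes, fell by 0.54 ± 0.07 (edgeR adjusted p = 0.000452), from 292, 286 and 305 CPM in PBS to 207, 205 and 195 CPM in CSE, with a wide gap between the groups. Insig1, itself a target of SREBP, fell by 1.02 ± 0.09 (edgeR adjusted p = 3.7e-05). Prkaa2, which encodes a catalytic subunit of the AMP-activated kinase that inhibits acetyl-CoA carboxylase, rose by 0.51 ± 0.14 from a low level (1.19 to 1.6 TPM; edgeR adjusted p = 0.0429). The call of Prkaa2 was lost in 13 of 19 alternative analyses, with an adjusted p of 0.0665 in DESeq2 and 0.194 without CSE replicate 2, and held with 1 library left out only without PBS replicate 2. Scap, which escorts SREBP from the endoplasmic reticulum, the LXR genes Nr1h2 and Nr1h3, and Mlxipl, which encodes the glucose-responsive lipogenic factor, were not called, and Mlxipl was at 0.497 TPM in PBS.

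Of 9 genes that supply citrate, acetyl-CoA and NADPH, 1 fell and 1 rose. Idh1, which encodes a cytosolic isocitrate dehydrogenase that forms NADPH, fell by 0.76 ± 0.08 (edgeR adjusted p = 9.4e-05), from 70.8, 63.9 and 70.6 to 40.4, 39.0 and 42.2 CPM. Pgd, of the pentose phosphate pathway and also a source of NADPH, rose by 0.37 ± 0.07 (edgeR adjusted p = 0.00651), from 246, 222 and 244 to 318, 303 and 301 CPM. Both genes had groups that did not overlap, in opposite directions. The call of Pgd was lost on the TPM scale (limma on log2(TPM + 1), adjusted p = 0.0728). Of 8 tested genes of the mitochondrial synthesis pathway and related carboxylases none was called by edgeR, 2 had an unadjusted p under 0.05, and DESeq2 called 0 lower and 0 higher.

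Elongation is a repeated cycle, and the elongases carry out its first step. Of 10 tested genes of the other elongases and cycle enzymes, Elovl7 fell by 0.55 ± 0.12 (edgeR adjusted p = 0.0134) and Hsd17b12, the ketoacyl-CoA reductase of the next step, fell by 0.30 ± 0.07 (edgeR adjusted p = 0.0212), from 263, 243 and 236 to 204, 194 and 207 CPM. Neither call held without CSE replicate 2 (adjusted p = 0.0815 and 0.131) or without CSE replicate 3 (0.0543 and 0.0747), nor with protein-coding transcripts only (0.204 and 0.0996), and that of Hsd17b12 was also lost without CSE replicate 1 (0.0795). Among 8 other desaturases and their electron carriers, Fads3, which stands beside Fads2, fell by 0.41 ± 0.07 (edgeR adjusted p = 0.00279), from 576, 538 and 535 to 406, 424 and 409 CPM. Its change was the larger of the Fads genes in the fit, though this difference was not tested, and the call was lost with an offset for effective transcript length (adjusted p = 0.0849). Scd4 rose by 0.75 ± 0.17 (edgeR adjusted p = 0.0179) on 46, 50 and 70 counts in PBS and 65, 129 and 93 in CSE. It shared 12.3% of its 31-base words with other genes, and the call was lost without CSE replicate 2 or 3 (adjusted p = 0.0731 and 0.0755). Scd3, at 0.475 TPM in PBS and 0.171 TPM in CSE, was not called (-1.31 ± 0.39, edgeR adjusted p = 0.0524).

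None of 13 genes of glycerolipid synthesis and fatty acid activation was called by edgeR, 4 had an unadjusted p under 0.05, and DESeq2 called 0. The 2 of smallest p were Acsl5 (0.19 ± 0.07) and Acsl1 (0.20 ± 0.08), which encode enzymes that activate fatty acids to acyl-CoA. In contrast to these lists, all 7 tested genes of the sterol-regulated list were called lower, with a median log2 change of -0.61. Sqle, squalene epoxidase, fell by 0.61 ± 0.07, from 220, 205 and 219 to 143, 139.9 and 137 CPM. Hmgcs1 fell by 0.83 ± 0.09 and Idi1 by 0.95 ± 0.08, with 15.6% and 32.0% of their 31-base words shared with other genes. Fdft1, which fell by 0.63 ± 0.08, shared the most, 47.5%, of which 26.2% of its words with Ctsb. The fall of Elovl6 was larger than the change of any of these 7, that of Fasn smaller than 6 of them, and these differences were not tested.

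**Figure D4:**
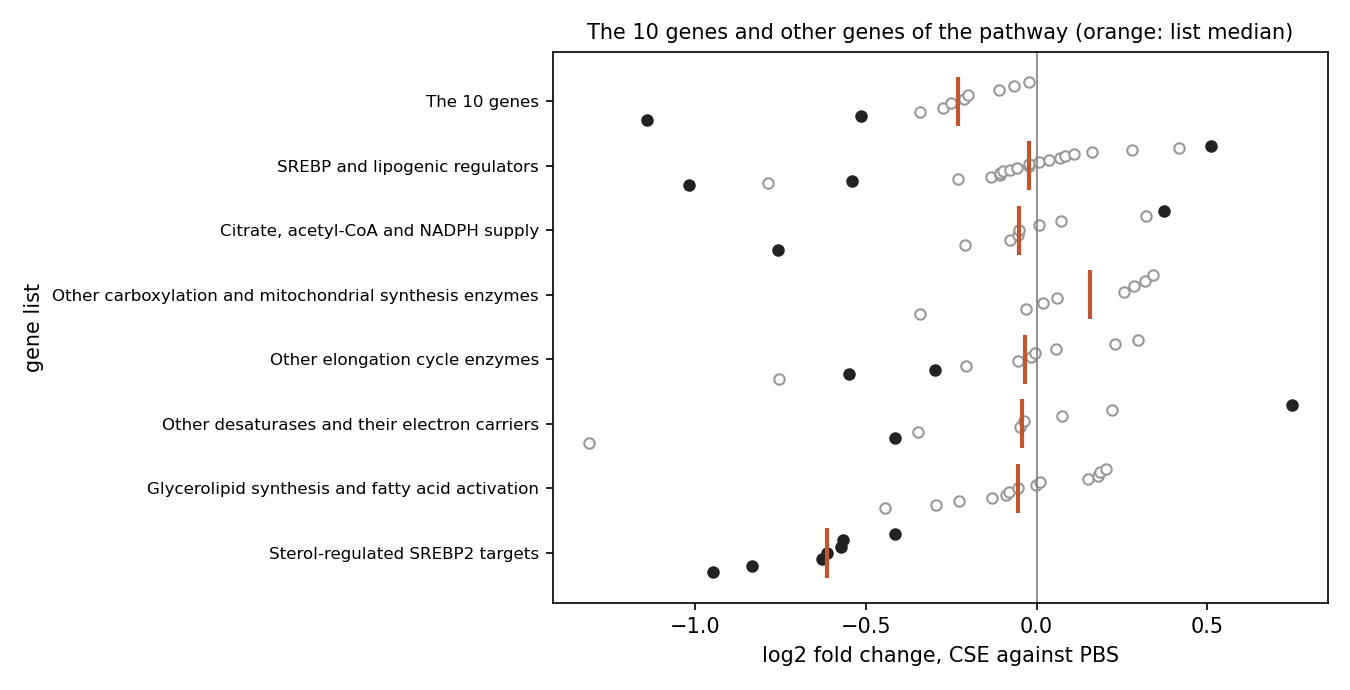
Log2 fold change of CSE against PBS for the tested genes of each list (filled where called by edgeR), with the list's median in orange. The median of the 10 genes is -0.23 and that of the sterol-regulated genes -0.61, and the medians of the other lists lie between -0.06 and 0.16.

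Some cell type markers were also called, where 7.12% of all genes tested were called lower and 4.32% higher. Nkx2-1 and Epcam were not called. The epithelial markers summed to between 1281 and 1396 TPM in the PBS libraries and between 710.3 and 804 TPM in the CSE libraries, with 3 of 5 tested called lower. The alveolar type 1 markers summed to between 1018 and 1094 TPM in PBS and between 621 and 676 TPM in CSE, with 5 of 6 called lower. The 4 fibroblast markers, present mainly as Dcn, summed to between 868 and 1126 TPM in PBS and between 477 and 544 TPM in CSE, with 2 of 3 tested called lower and Pdgfra called higher. Of the alveolar type 2 markers, which summed to between 37.4 and 42.9 TPM in PBS and between 31.2 and 37.6 TPM in CSE, 1 of 4 tested was called lower. This was Sftpc (-1.57 ± 0.37, edgeR adjusted p = 0.0205), with 18, 19 and 18 counts in PBS and 4, 8 and 7 in CSE. The part of these changes in those of Elovl6 and Fasn was not tested. In such bulk RNA, fewer cells that express a gene and less of its RNA per cell cannot be told apart.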

How the data were processed

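Per the labels' protocols, polyA RNA of 6 samples was extracted with TRIzol and made into libraries with a Vazyme kit. That text names lung tissue, but every sample is labelled as cells of the line. The deposited files give an estimated count and a TPM value (count per effective length, scaled to the same total in every library) for each of 118489 transcripts, per the file headers. The tools listed per the submitters' processing notes were DESeq2 1.40.2, FastQC 0.12.1, kallisto 0.46.2 and fastp 0.20.1, with GRCm38 as the build. The index and the strandedness used are not stated in the labels. kallisto shares ambiguous reads among transcripts by a model, so counts of similar sequences are estimates.

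Transcripts were matched to GENCODE vM21 (98.6%; the others held 0.638% to 0.664% of counts and were left out) and summed per gene, and counts were rounded. Low genes were removed (filterByExpr, minimum count 10), and CPM used TMM-scaled library sizes. The groups were compared in edgeR (quasi-likelihood F test, two-sided) and p-values were adjusted over 13451 genes by Benjamini-Hochberg, with a threshold of 0.05. SE is the log2 change divided by the square root of the F statistic. The biological coefficient of variation was 9.17%. The main fit did not pair libraries by replicate number, since same-numbered libraries showed no shared deviation. In simulated counts for these 13451 genes, 100 were given a 1.5-fold change and 100 a 2-fold change. The test found 71% and 88% of them, with 4.22% of calls on unchanged genes. Far fewer genes were changed there than the 1539 called in the data, and the simulated libraries had no shifts of a whole library. These percentages therefore need not hold for the data.

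Named genes were the 10 genes, in each list the called genes (at most 6) or the 2 of smallest p, and the 5 genes most like Fasn and Elovl6; further genes were named for their role. Some genes are not reported here. The genes and lists were chosen with earlier results of these data known. Of the list symbols, 1 (Hsd17b8) had no match. Alternatives were other scalings, tests, filters, length and GC corrections, TPM with limma, a replicate block and leaving out each library. Summing protein-coding transcripts only was added after seeing the data. Fits ran in edgeR 4.0.16, DESeq2 1.42.0 and limma 3.58.1 under R 4.3.3, and permutation tests in scipy 1.17.1 under Python 3.11.15.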

Additional observations from a re-analysis of the deposited data

How the results depend on the processing

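The number of the 10 genes called lower was 2, and 3 with RLE (another scaling of the libraries), 4 with library-size scaling and 5 with DESeq2. It was 5 with no filter on low counts and 5 with a minimum mean of 5 CPM. With GC and length trends removed it was 4, and against a 1.5-fold change 1. Over all genes tested, the number called lower was, in the same order, 958, 963, 987, 952, 1145, 941, 910 and 93. The filters also alter how many genes are tested. With 1 library left out, the number of the 10 genes called lower lay between 2 and 7. No gene of the 10 was called higher in any analysis. Signs turned for Srebf1 (0.16 after the GC and length correction, 0.0043 without PBS replicate 2, and between -0.057 and 0.048 over all omissions of 1 library, the last without CSE replicate 3) and for Acaca (0.011 with the effective-length offset, 0.035 after the GC and length correction). Over all genes, 1539 were called, and 998 and 985 with limma on log2(TPM + 1) and log2(TPM + 0.1), 161 against a 1.5-fold change and, with 1 library left out, 837 to 1941. Of these, 958 were lower (93 against a 1.5-fold change, 554 to 981 with 1 library left out) and 581 higher (1052 with no filter, 224 and 220 with limma on the 2 TPM scales, 68 against a 1.5-fold change, 281 to 967 with 1 library left out). Of the other listed genes, 13 were lower (2 against a 1.5-fold change) and 3 higher. In the main fit 7 of the 13 were sterol-regulated genes. The number higher was 5 with no filter and 5 after the GC and length correction. It was 0 and 0 with limma on the 2 TPM scales, 0 against a 1.5-fold change and 1 to 7 with 1 library left out. Deviations of same-numbered libraries correlated at -0.12, 0.0061 and -0.06, so no shared shift was seen. Such values cannot show whether these libraries were handled together. With the replicate block 1022 genes were called, 331 of them higher, and the same 2 of the 10 genes. Hsd17b12 and Prkaa2 were then not called (edgeR adjusted p = 0.0738 and 0.0766). The 4 ratios kept their sign on log2(TPM + 1), on counts, with protein-coding transcripts only and with each library left out. The cause of these shifts was not tested. Transcript values rest on the authors' model, and low counts limit the precision for genes such as Scd3 and Mlxipl.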
